A study of Mus musculus with 10 samples.

Results

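The genes described here are 10 mouse genes: 7 transcriptional targets of the tumour suppressor p53 (Mdm2, Cdkn1a, Ccng1, Trp53inp1, Eda2r, Zmat3 and Perp) and the 3 genes of the Gadd45 family (Gadd45a, Gadd45b and Gadd45g). They were chosen by name, as p53 targets outside the BCL-2 and sestrin families together with the Gadd45 family. The choice was made with earlier results of these data known. They are 10 of 48709 genes in the count tables. Each matched 1 Ensembl identifier, and all 10 passed the filter on low counts. Polyadenylated RNA came from cultured primary neurons of the mouse hippocampus, 10 days in vitro. Cultures were given tunicamycin at 2 ug/mL for 6 h (6 libraries) or DMSO, its solvent, for 6 h (4 libraries). Tunicamycin stops N-linked glycosylation of new proteins and so causes stress of the endoplasmic reticulum. No genotype, strain or age is given in the sources used here, and nothing says that the libraries are of different cultures or animals. The p-values then measure only how these libraries vary, possibly for technical reasons.

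In unstressed cells the ubiquitin ligase Mdm2 keeps p53 short-lived, and p53 in turn drives transcription of Mdm2, which closes a feedback loop. When p53 is stabilised, for example after DNA damage, it raises genes that stop the cell cycle (Cdkn1a), tune p53 itself (Mdm2, Ccng1, Trp53inp1) or favour cell death (Perp, Eda2r). The Gadd45 proteins are small stress sensors that bind the kinase Map3k4, PCNA and the cyclin B1 kinase Cdk1. Gadd45a is the family member best known as a p53 target, and all 3 also respond to other stress and growth signals. In neurons Gadd45b is known as an activity-induced gene linked to DNA demethylation.

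Depth was between 21055289 and 29234887 counts per library. The names of the deposited files place the libraries in 3 sequencing lanes, each with 1 or 2 DMSO and 2 tunicamycin libraries. Markers of other cells had counts, and many passed edgeR's test (adjusted p under 0.05). Of all 15660 genes tested, 31.8% passed as higher and 32.5% as lower. All 10 astrocyte markers passed the test as lower, and their summed level went from 3229 to 3626 CPM (counts per 1e6 counts of the library) with DMSO to 2213 to 2449 CPM with tunicamycin. Of 15 proliferation markers 13 fell, and their sum went from 145 to 186 CPM down to 93.7 to 109.7 CPM. Of 12 neuron markers 10 fell, with sums of 7095 to 7697 and 6149 to 6427 CPM. Microglia markers fell in 6 of 8 tested cases, with sums of 16.6 to 21.2 and 12.1 to 14.9 CPM. Of 8 tested oligodendrocyte lineage markers 4 fell and 1 rose, with sums of 192 to 241 and 122 to 147 CPM. Of 9 tested endothelial and mural markers 2 rose and 2 fell, with sums of 175 to 293 and 271 to 391 CPM. Fn1 alone went from a mean of 70.1 to 168 CPM, while Dcn fell from 38.7 to 28.3 CPM. Flt1 also rose, from a mean of 0.69 to 1.62 CPM, and Rgs5 also fell, from 3.84 to 2.49 CPM. Kdr had means of 50.6 CPM with DMSO and 58.4 CPM with tunicamycin and did not pass. Pecam1 and Cdh5 had at most 20 and 15 counts in any library, and Cldn5, which was not tested, at most 1. No marker of any list was at 0 in all libraries. In these whole cultures fewer cells of a type and less RNA per cell cannot be told apart, and the part of other cells in the results below was not tested.

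The promoters of 7 of the 10 genes were found in a RefSeq table (GRCm38.p6) of windows from 250 bases before to 50 bases after each start site. These 7 genes had 8 windows, since Cdkn1a had windows at 2 start sites. Trp53inp1, Zmat3 and Perp had none there. Windows were searched on both strands for 5 motifs. The p53 half-site consensus is its own reverse complement and occurred in 8.36% of 32851 windows. It has a core of C, A or T, A or T, and G between 3 purines and 3 pyrimidines. A p53 full site was taken as a pair of such half-sites with a spacer of 0 to 13 bases, and 0.0731% of windows held one. The 20-base site was a pair of half-sites with no spacer and at most 1 mismatch, the C and G of both cores being kept. It occurred in 0.0670% of windows, and this search was added after the windows had been seen. The other motifs were TGATGNAA, the core of the element bound by ATF4 and C/EBP factors, in 3.97% of windows, and the cyclic AMP response element TGACGTCA, in 1.79%. A 20-base site is made of 2 half-site positions, so these motifs overlap one another. A match is a run of letters and not evidence of binding.

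The 5 upstream stretches shown are those of Cdkn1a and Ccng1, which held a 20-base p53 site and moved in opposite directions, and those of the Gadd45 genes, which moved together. Each is the 250 bases before the start site, read 5′ to 3′ on the gene's strand, and capitals mark the matches to a motif, with the spacer of a p53 full site left in lower case.
Cdkn1a, first start site (chr17:29090729-29090978, plus strand): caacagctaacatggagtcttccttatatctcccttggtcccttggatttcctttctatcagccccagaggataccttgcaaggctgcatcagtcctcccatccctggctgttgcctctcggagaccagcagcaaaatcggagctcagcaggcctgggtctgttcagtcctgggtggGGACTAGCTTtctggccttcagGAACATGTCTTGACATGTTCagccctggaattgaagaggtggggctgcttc
Ccng1 (chr11:40755287-40755536, minus strand): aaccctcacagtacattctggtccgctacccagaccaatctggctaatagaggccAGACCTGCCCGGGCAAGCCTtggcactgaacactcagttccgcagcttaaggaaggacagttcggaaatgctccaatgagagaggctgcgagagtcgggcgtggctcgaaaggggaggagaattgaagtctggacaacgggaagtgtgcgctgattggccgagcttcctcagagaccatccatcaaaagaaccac
Gadd45a (chr6:67037408-67037657, minus strand): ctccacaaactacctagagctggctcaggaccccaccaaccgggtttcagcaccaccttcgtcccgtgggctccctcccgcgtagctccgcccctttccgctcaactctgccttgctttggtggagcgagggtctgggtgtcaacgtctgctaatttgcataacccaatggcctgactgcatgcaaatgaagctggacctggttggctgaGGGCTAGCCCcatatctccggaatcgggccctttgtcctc
Gadd45b (chr10:80929841-80930090, plus strand): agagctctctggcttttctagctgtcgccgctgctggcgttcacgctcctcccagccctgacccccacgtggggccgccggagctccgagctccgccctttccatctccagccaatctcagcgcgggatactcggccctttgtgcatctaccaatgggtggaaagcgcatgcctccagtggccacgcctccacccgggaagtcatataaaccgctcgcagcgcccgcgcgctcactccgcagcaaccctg
Gadd45g (chr13:51846425-51846674, plus strand): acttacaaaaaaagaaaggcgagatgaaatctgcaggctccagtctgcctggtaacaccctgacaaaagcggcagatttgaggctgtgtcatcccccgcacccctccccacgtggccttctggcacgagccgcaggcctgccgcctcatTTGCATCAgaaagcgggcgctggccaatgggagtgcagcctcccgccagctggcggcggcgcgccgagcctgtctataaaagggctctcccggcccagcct
In the Cdkn1a window, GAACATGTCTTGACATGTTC started 51 bases before the start site (the match is placed at -51), and a further half-site, GGACTAGCTT, started at -73. Together with the first half-site of the 20-base site it made a p53 full site of 32 bases, which started at -73. In the Ccng1 window, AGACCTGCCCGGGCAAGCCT started at -195. Single half-sites were GGGCTAGCCC at -40 in Gadd45a and GAACTTGCCT at -186 in Mdm2. The only match to TGATGNAA was in Gadd45g, on the opposite strand, as TTGCATCA at -101. The windows of Gadd45b, Eda2r and the second Cdkn1a start site held no match to any of the 5 motifs, and no window of these genes held TGACGTCA. Bases outside the windows, introns among them, were not searched, so a missing match does not describe the whole gene. Counts were per gene, so transcripts from the 2 start sites of Cdkn1a were not told apart.

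All 10 genes passed edgeR's quasi-likelihood test (Benjamini-Hochberg adjusted p under 0.05), 6 higher and 4 lower with tunicamycin. Of 15660 genes tested, 64.3% passed, 31.8% as higher and 32.5% as lower. The 10 genes were chosen with earlier results of these data known, so their shares beside these are a description and not a test. All 3 Gadd45 genes rose at least 2-fold, a change that 2.78% of all tested genes made. Trp53inp1 was the 1 member to fall at least 2-fold, against 2.13% of all genes. The p53 targets split, with 3 of 7 higher and 4 of 7 lower. Under upper-quartile scaling, which moved the median of all genes by -0.11 on the log2 scale, 3632 genes were higher and 6934 lower in place of 4983 and 5082. The libraries of both groups did not overlap for 8 of the 10 genes, against 50.9% of all genes tested. For 6 of them all tunicamycin libraries lay above all DMSO libraries (27.0% of all genes) and for 2 below (23.9%). The median log2 fold change was 0.63 over the 10 genes and -0.02 over all tested genes.

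**Figure D1:**
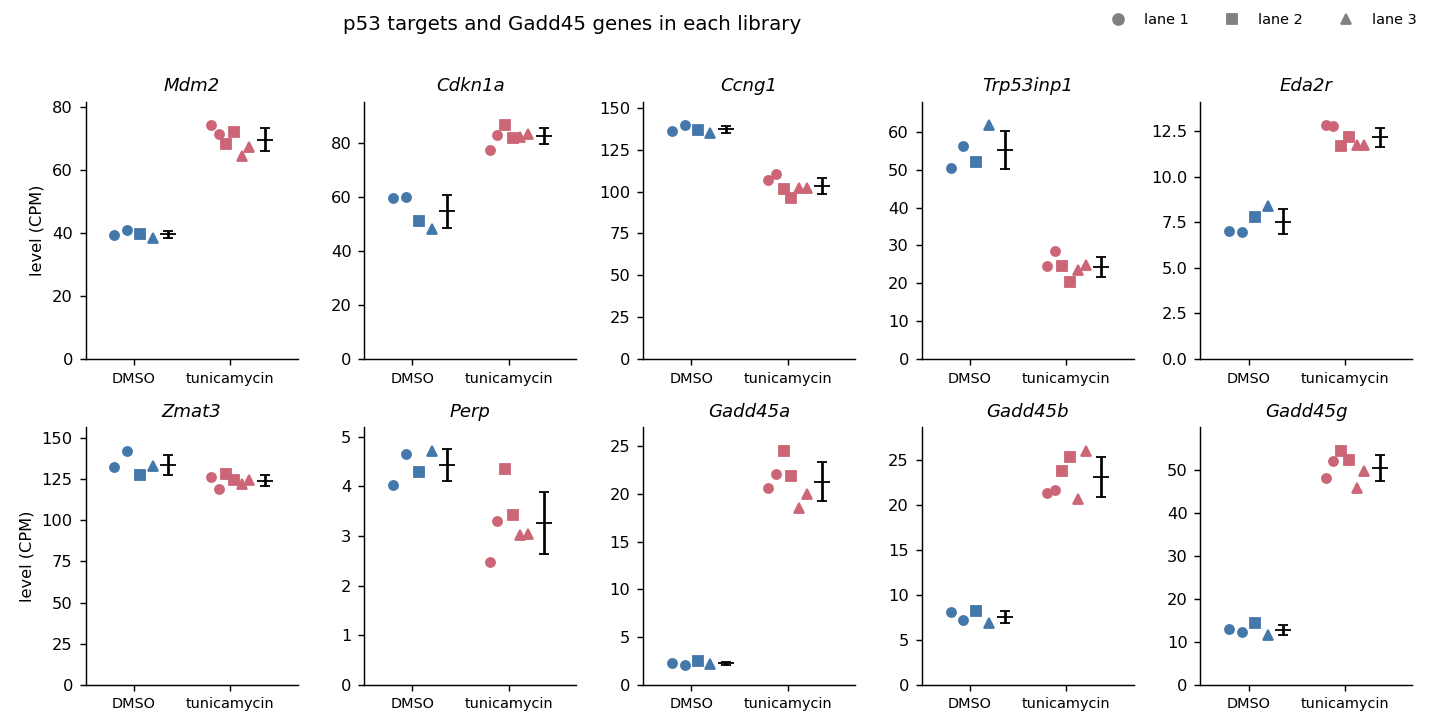
Level in CPM (linear axis from 0) of each gene in the 4 DMSO and 6 tunicamycin libraries. Each point is 1 library, its shape gives the sequencing lane, and the bar beside each group is the mean ± SD. The groups do not overlap except for Zmat3 and Perp, and the Gadd45 genes have the largest fold changes of the 10.

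Gadd45a, a stress sensor (ENSMUSG00000036390, chromosome 6, 67035096 to 67037457, GRCm38, minus strand), rose the most of the 10. It stood at 2.30, 2.07, 2.49 and 2.18 CPM in DMSO replicates 1 to 4. The lowest tunicamycin library was at 18.6 CPM, the median at 21.3 and the highest at 24.5. No tunicamycin library came near the DMSO range, and the DMSO values rest on 48 to 56 counts each. The mean of 4 DMSO libraries was 2.26 ± 0.18 CPM (SD) and that of 6 treated ones 21.3 ± 2.04 CPM (SD), a 9.38-fold rise. On the log2 scale this was 3.23 ± 0.10 (SE; adjusted p = 1.43e-17 by edgeR), the 13th largest rise among 15660 genes. Of its exonic bases 19.1% overlap the antisense gene E230016M11Rik, and the library kit does not mark strand, so reads from the shared part cannot be told apart. That antisense gene itself was at 1.22 ± 0.308 CPM (SD, n = 4) and 2.05 ± 0.428 CPM (SD, n = 6), or 17 to 68 counts per library.

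Gadd45g (ENSMUSG00000021453, chromosome 13, 51846678 to 51848468, plus strand), the family member most studied in differentiation and neural development, also rose. DMSO replicates 1 to 4 had 12.9, 12.4, 14.4 and 11.5 CPM. Tunicamycin libraries ran from 45.9 CPM through a median of 51.1 to 54.5 CPM. All treated libraries were far above the highest DMSO library. EdgeR gave a log2 fold change of 1.97 ± 0.06 (SE; adjusted p = 2.57e-17), a 3.92-fold rise.

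Gadd45b (ENSMUSG00000015312, chromosome 10, 80930073 to 80932204, plus strand) rose less than its relatives. Its DMSO libraries held 8.06, 7.21, 8.21 and 6.85 CPM. With tunicamycin the lowest was 20.7, the median 22.7 and the highest 26.0 CPM. The groups were again far apart. The rise was 3.04-fold, with a log2 fold change of 1.60 ± 0.08 (SE; adjusted p by edgeR = 1.52e-13).

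The 3 family members did not rise by the same factor. Within a library the log2 ratio of Gadd45b to Gadd45a counts fell from 1.74 ± 0.07 (SD, n = 4) to 0.12 ± 0.16 (SD, n = 6). The log2 ratio of Gadd45g to Gadd45a went from 2.49 ± 0.08 to 1.249 ± 0.060, and that of Gadd45g to Gadd45b from 0.75 ± 0.06 to 1.13 ± 0.12. For each of the 3 ratios the libraries of both groups did not overlap. The two-sided exact permutation p was 0.00476 for each, the smallest that 210 splits can give, and 0.00556 adjusted over the 7 ratios tested. Such a ratio does not depend on the scaling between libraries. Per exon length the family summed to 16.98 ± 1.52 CPM per kb with DMSO and 69.7 ± 4.57 CPM per kb with tunicamycin. Gadd45a made up 7.55 ± 0.34% of that sum with DMSO and 17.3 ± 0.81% with tunicamycin. Gadd45g was the main member in both, at 64.3 ± 0.85% and 61.8 ± 0.90%. The share of Gadd45b went from 28.1 ± 0.77% to 20.9 ± 1.48%.

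**Figure D2:**
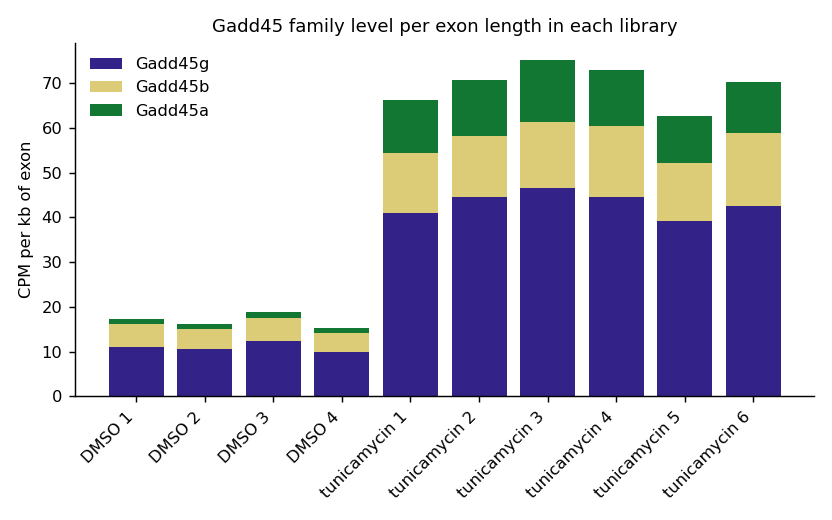
Level of the 3 Gadd45 genes per kb of exon (CPM per kb, stacked, linear axis from 0) in each of the 10 libraries. The family sum is 15.4 to 18.9 in the DMSO libraries and 62.7 to 75.3 in the tunicamycin libraries, and the Gadd45a part is the one that grows most relative to its DMSO level.

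Mdm2, the ubiquitin ligase that both targets p53 and is driven by it (ENSMUSG00000020184, chromosome 10, 117688875 to 117710758, minus strand), rose 1.74-fold. Its levels were 39.2, 41.0, 39.7 and 38.4 CPM in DMSO replicates 1 to 4. Tunicamycin libraries had a minimum of 64.3, a median of 69.7 and a maximum of 74.3 CPM. Both groups were tight and far apart. EdgeR gave a log2 fold change of 0.80 ± 0.04 (SE; adjusted p = 2.74e-13). Mdm2's relative Mdm4, which binds p53 and holds back its activity, rose as well. Its mean was 91.5 ± 6.16 CPM with DMSO and 138 ± 8.55 CPM with tunicamycin, with a log2 fold change of 0.58 ± 0.05. The transcript of p53 itself, Trp53, was at 21.5, 20.1, 22.5 and 19.6 CPM with DMSO. Its treated libraries ran from 24.8 through a median of 27.1 to 27.8 CPM, all above the DMSO libraries. The rise of Trp53 was smaller, 1.28-fold (log2 0.35 ± 0.05; adjusted p by edgeR = 2.74e-06). The log2 ratio of Mdm2 to Trp53 counts rose from 0.92 ± 0.09 to 1.37 ± 0.12, and that of Mdm2 to Mdm4 from -1.21 ± 0.09 to -0.98 ± 0.06. Mdm2 therefore changed by a larger factor than either, and the groups did not overlap (two-sided exact permutation p = 0.00476 for both, 0.00556 adjusted over 7 ratios). Transcript levels say nothing of the amount of p53 protein, which was not measured.

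Cdkn1a encodes p21, an inhibitor of cyclin-dependent kinases (ENSMUSG00000023067, chromosome 17, 29090976 to 29100727, plus strand). DMSO replicates 1 and 2, from lane 1, had 59.7 and 60.0 CPM, and replicates 3 and 4 had 51.2 and 48.1 CPM. The treated libraries held 77.6 CPM at the lowest, 82.7 at the median and 86.8 at the highest. All treated libraries lay above all DMSO libraries. The rise was 1.497-fold, with a log2 fold change of 0.58 ± 0.05 (SE; adjusted p by edgeR = 7.30e-09). Within lanes 1, 2 and 3 the difference of mean log2 CPM was 0.42, 0.72 and 0.78. Of its exonic bases 7.68% overlap an antisense gene, whose share of the counts cannot be told apart.

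Eda2r, a receptor of the tumour necrosis factor family for ectodysplasin A2 (ENSMUSG00000034457, chromosome X, 97333840 to 97377216, minus strand), rose as well. It was at 7.02, 6.95, 7.80 and 8.39 CPM in the DMSO libraries. Treated libraries ranged from 11.7 to 12.8 CPM with a median of 11.9. The groups were clearly apart, with all treated libraries higher. EdgeR gave a log2 fold change of 0.68 ± 0.07 (SE; adjusted p = 2.79e-08), or 1.60-fold. In lanes 1, 2 and 3 alone the log2 difference was 0.87, 0.61 and 0.48. The gene of its ligand, Eda, moved the other way, from 8.32 ± 0.67 CPM over 4 DMSO libraries to 6.50 ± 0.82 CPM over 6 treated ones, with a log2 fold change of -0.37. The Eda difference was -0.07 in lane 3 alone, where it did not pass the test (adjusted p by edgeR = 0.731).

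Trp53inp1 fell the most. It encodes a nuclear stress protein that promotes p53 activity and autophagy (ENSMUSG00000028211, chromosome 4, 11156431 to 11174379, plus strand). The DMSO libraries held 50.5, 56.4, 52.2 and 61.8 CPM. With tunicamycin the lowest was at 20.4, the median at 24.5 and the highest at 28.6 CPM. Every treated library was below every DMSO library. The level fell to 44.0% of that with DMSO, a log2 fold change of -1.19 ± 0.08 (SE; adjusted p by edgeR = 1.05e-08). Its paralog Trp53inp2, which acts in autophagy, was at 322 ± 8.96 CPM (SD, n = 4) and 319 ± 8.46 CPM (SD, n = 6) and was not called (log2 -0.02 ± 0.03 by edgeR, adjusted p = 0.603). With upper-quartile scaling Trp53inp2 passed as lower, at log2 -0.13. The log2 ratio of Trp53inp1 to Trp53inp2 fell from -2.55 ± 0.16 to -3.72 ± 0.18 with no overlap (two-sided exact permutation p = 0.00476, 0.00556 adjusted over 7 ratios).

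Ccng1 encodes cyclin G1, which recruits protein phosphatase 2A to Mdm2 (ENSMUSG00000020326, chromosome 11, 40748552 to 40755311, minus strand). Its DMSO libraries were close together at 136.5, 139.8, 137 and 135 CPM. The treated libraries had 96.3 CPM at the lowest, 102 at the median and 111 at the highest. They all lay below the DMSO range. EdgeR gave a log2 fold change of -0.42 ± 0.04 (SE; adjusted p = 1.27e-09), a fall to 74.9% of the DMSO level. Ccng2, its paralog, fell from 46.5 ± 3.92 to 37.4 ± 2.71 CPM (log2 -0.32 ± 0.06), though by -0.16 in lane 1 alone, where it did not pass (adjusted p by edgeR = 0.126). The log2 ratio of Ccng1 to Ccng2 was 1.56 ± 0.13 (SD, n = 4) and 1.47 ± 0.12 (SD, n = 6), with overlapping libraries. That difference of -0.10 did not pass (two-sided exact permutation p = 0.267), which does not show that both fell alike. The stretches of Cdkn1a and Ccng1 were printed because both held a 20-base p53 site and the genes moved in opposite directions. Their directions are therefore no test of the site.

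Perp and Zmat3 fell, but their groups overlapped. Perp, a membrane protein of desmosomes and an effector of p53-dependent death (ENSMUSG00000019851, chromosome 10, 18845020 to 18857073, plus strand), had 4.03, 4.66, 4.29 and 4.71 CPM with DMSO. The treated libraries ran from 2.47 through a median of 3.18 to 4.35 CPM, so that the highest of them lay inside the DMSO range. EdgeR gave a log2 fold change of -0.45 ± 0.12 (SE; adjusted p = 0.00311), which rests on 59 to 126 counts per library. In lane 2 alone it was -0.15 and did not pass (adjusted p by edgeR = 0.596).

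Zmat3, a zinc finger protein that binds RNA and acts in p53-dependent splicing (ENSMUSG00000027663, chromosome 3, 32334792 to 32366014, minus strand), was at 132, 142, 127 and 133 CPM with DMSO. Treated libraries had 119, 124.5 and 128 CPM as lowest, median and highest. The ranges touched, since the lowest DMSO library was under the highest treated one. EdgeR gave a log2 fold change of -0.12 ± 0.03 (SE; adjusted p = 0.00462). In lanes 1, 2 and 3 alone it did not pass, at log2 -0.15, -0.03 and -0.11 (adjusted p by edgeR = 0.0647, 0.630 and 0.0581).

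**Figure D3:**
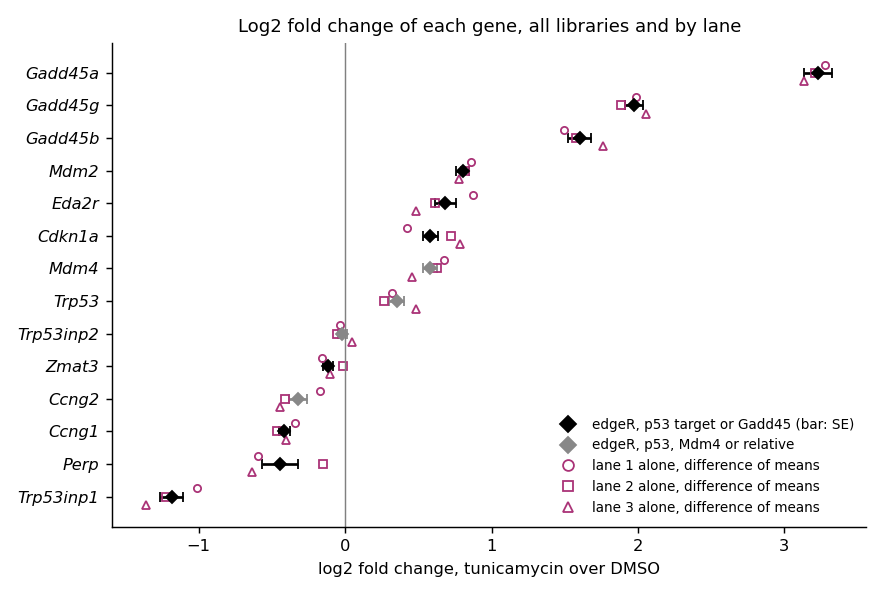
Log2 fold change of tunicamycin over DMSO (edgeR, all libraries, bar: SE) for the 10 genes in black and for Mdm4, Trp53, Trp53inp2 and Ccng2 in grey. Open symbols give the difference of mean log2 CPM in each sequencing lane. The 10 genes run from -1.19 for Trp53inp1 to 3.23 for Gadd45a, and in every lane each of them has the sign of its value over all libraries.

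**Figure D4:**
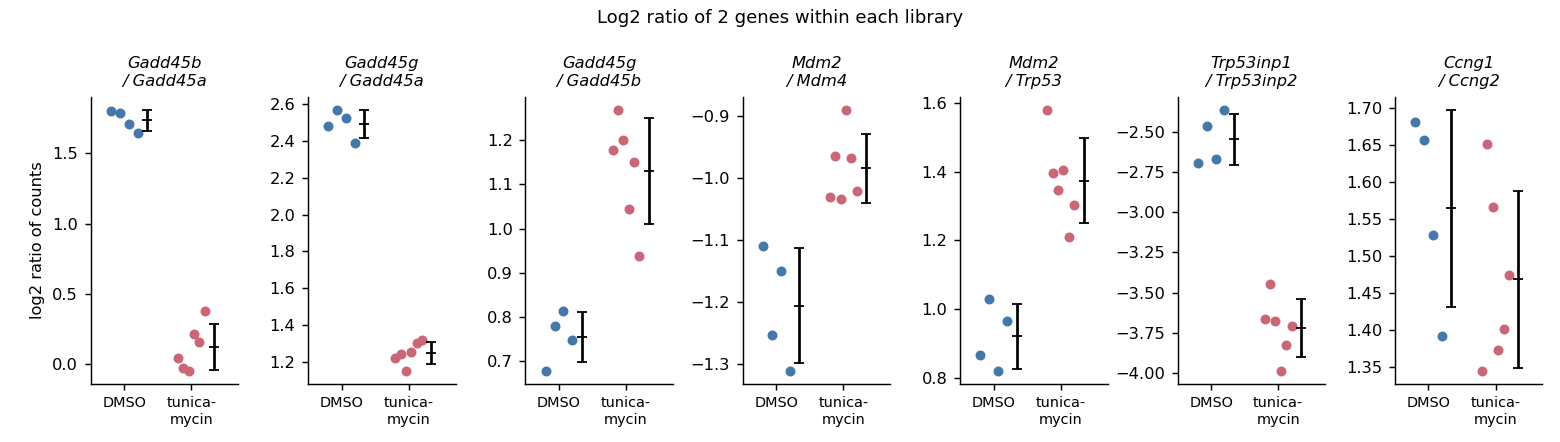
Log2 ratio of the counts of 2 genes within each library (points), with mean ± SD beside each group of 4 DMSO and 6 tunicamycin libraries. Each panel has its own axis range. The groups overlap only for Ccng1 to Ccng2.

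The order of levels changed with treatment. Per kb of exon, Ccng1 was highest with DMSO (39.1 ± 0.55 CPM per kb), followed by Cdkn1a (15.4 ± 1.695), Zmat3 (11.7 ± 0.54), Gadd45g (10.9 ± 1.05), Trp53inp1 (8.53 ± 0.78) and Mdm2 (7.79 ± 0.22). Gadd45b (4.77 ± 0.42), Perp (2.27 ± 0.16), Gadd45a (1.28 ± 0.10) and Eda2r (1.28 ± 0.12) were the lowest. The ranges of neighbours overlapped for Zmat3 and Gadd45g, for Trp53inp1 and Mdm2, and for Gadd45a and Eda2r. With tunicamycin Gadd45g stood first (43.1 ± 2.67 CPM per kb), ahead of Ccng1 (29.4 ± 1.41) and Cdkn1a (23.2 ± 0.83). Gadd45b (14.6 ± 1.41), Mdm2 (13.7 ± 0.72), Gadd45a (12.1 ± 1.16) and Zmat3 (10.9 ± 0.27) followed, each overlapping the next. Trp53inp1 (3.76 ± 0.41), Eda2r (2.06 ± 0.09) and Perp (1.67 ± 0.32) came last, and Eda2r and Perp overlapped. Gadd45a thus moved from a level shared with Eda2r, the lowest of the 10, into the range of Mdm2.

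Of 26 genes of p53 and its regulators, 17 rose, 2 fell and 7 did not pass, where 31.8% of all tested genes rose and 32.5% fell. Their median log2 fold change was 0.21, and the largest rise was 0.82. Rchy1, also called Pirh2, another ubiquitin ligase for p53, rose from 41.5 ± 1.246 CPM with DMSO to 73.8 ± 2.39 CPM, a log2 fold change of 0.82. Of its exonic bases 18.0% overlap an antisense gene. Ppp1r13b, which encodes the p53 cofactor ASPP1, rose with a log2 fold change of 0.66, and Mdm4 followed. The members that fell were Trp73, a p53 relative (log2 -0.41, not passing in any single lane), and Atm, the kinase that activates p53 after DNA breaks (-0.22). Of the exonic bases of Trp73 5.06% overlap an antisense gene. Without DMSO replicate 2 the fall of Atm did not pass (log2 -0.17, adjusted p by edgeR = 0.0515), and 1 member then passed as lower in place of 2. In lane 1 alone and in lane 2 alone Atm did not pass either, at log2 -0.16 and -0.21 (adjusted p by edgeR = 0.341 in lane 1). Under upper-quartile scaling 11 of the 26 rose in place of 17.

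Of 39 other p53 targets tested, 11 rose, 17 fell and 11 did not pass, with a median log2 fold change of -0.13. The share that rose is near the 31.8% of all tested genes, of which 32.5% fell. Gdf15, a secreted stress hormone, rose from 1.084 ± 0.052 CPM with DMSO to 17.2 ± 0.83 CPM, a log2 fold change of 3.97 ± 0.09. Btg2, an antiproliferative gene that activity also induces, rose by 1.14, and Plk2, a kinase of synaptic scaling, by 0.92 on the log2 scale. The metalloreductase Steap3 fell the most (-1.14), followed by Psrc1 and Ckap2, both microtubule-binding proteins of dividing cells (-0.57 each). Psrc1 did not pass in lane 2 alone (log2 -0.32, adjusted p by edgeR = 0.733). Under upper-quartile scaling 7 of these targets rose in place of 11.

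Among 25 partners of the Gadd45 and p21 proteins, 3 rose, 16 fell and 6 did not pass, with a median log2 fold change of -0.26. Over all tested genes 31.8% rose and 32.5% fell. The DNA demethylation enzymes Tet3 (log2 0.53) and Tet2 (0.49) rose, and so did Map3k4, the kinase that Gadd45 proteins activate (0.37). Beside Tet3 and Tet2, Apex1 fell (-0.20, with 61.7% of exonic bases overlapping an antisense gene), and Tet1 (-0.16) and Tdg (0.13) were not called. Beside Map3k4, the kinases Map2k6 (-0.48), Map2k4 (-0.08), Mapk8 (-0.09) and Mapk9 (-0.08) fell, and Map2k7 (0.07) and Mapk14 (-0.03) were not called. Cdk1 (log2 -0.85), Ccne2 (-0.82) and Ccna2 (-0.78), which drive S phase and mitosis, were the largest falls. The proliferation markers fell beside them, and their part in these falls was not tested. Ccne2 and Ccna2 overlap an antisense gene in 17.4% and 12.5% of their exonic bases.

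**Figure D5:**
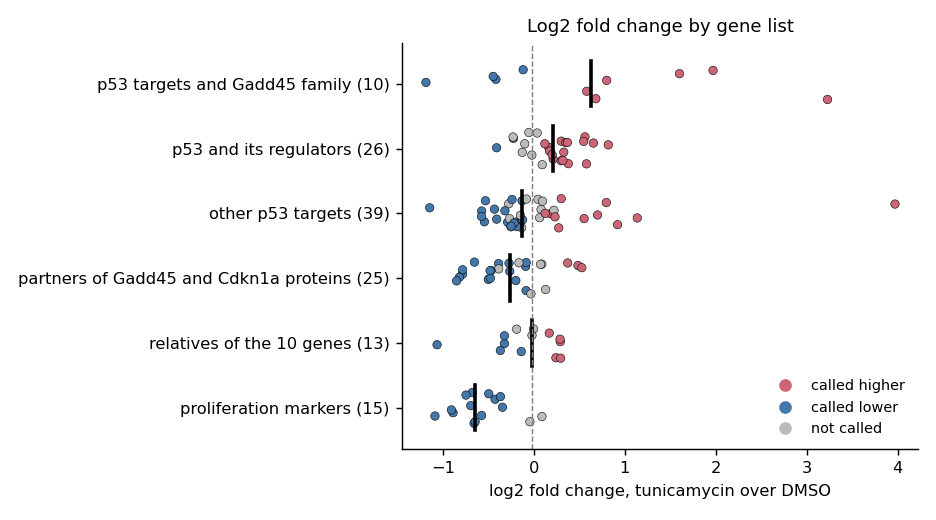
Log2 fold change of tunicamycin over DMSO for every tested gene of each list (points, with the number tested in brackets). Colour gives the edgeR call, the black bar the median of the list, and the dashed line the median of all genes tested. The Gadd45 genes lie to the right of all p53 regulators, while the other p53 targets spread on both sides of 0.

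Of the stress factors Atf4 and Ddit3 (CHOP) with their partners and targets, which respond to stress of the endoplasmic reticulum, 7 of 7 rose (median 2.01 on the log2 scale). Among all tested genes 31.8% rose, and the median was -0.02. The authors' deposited tables of called genes listed all 10 genes in the same direction as here. Their log2 fold change was 3.23 for Gadd45a, 0.80 for Mdm2 and -1.19 for Trp53inp1 in the authors' deposited table. The largest difference between the authors' deposited values and those of edgeR was 0.0077 over the 10 genes.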

How the data were processed

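Single-end reads of 50 bases came from TruSeq (version 2) libraries, per the labels' protocols. The tools listed, with no roles, are DESeq2, featureCounts, STAR 2.5.2b, Subread 1.5.1 and FastQC 0.11.5, and the build is mm10, per the submitters' processing notes. Not given in the sources used here: annotation release, strand setting, treatment of multiply matching reads. The authors deposited whole-number counts per gene, with no normalization. They also deposited log2 fold changes, adjusted p-values and a normalized signal per library for the genes they called. In 100% of values (relative tolerance 1e-4) that deposited signal was the count over a factor fixed for the library.

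Gene names, positions and exon lengths came from GENCODE M21 (GRCm38, another name of mm10). It matched 48349 of 48709 identifiers, and the 360 others held 0.0462% of counts and stayed in library totals. The test was the robust quasi-likelihood F test of edgeR 4.0.16 (in R 4.3.3, with TMM and filterByExpr) on all 10 libraries, Benjamini-Hochberg adjusted over 15660 genes. SE is the size of the log2 fold change over the square root of F. Levels are CPM (counts over the library total, not TMM-scaled) as mean ± SD, and CPM per kb divides by merged exon length. Ratios used a prior count of 0.5 and an exact permutation test. Libraries of 1 group differed by a chi-square of 2.18 to 10.5 per degree of freedom, more than counting noise alone gives, so no 2 were counted as 1 sample. This does not show that they are of separate cultures. On simulated counts of 15491 genes for this comparison the test recovered 58% of 50 genes changed 1.25-fold. The share was 88% for a change of 1.5-fold, 92% for one of 2-fold and 94% for one of 4-fold. It called 17 unchanged genes. Only 50 genes were changed at each fold and no lane effect was set, whereas 64.3% of genes passed in the data. The shares recovered in the data may therefore differ.

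The 10 genes and the lists were chosen with earlier results of these data known. Besides the 10 genes, those named are Trp53, Mdm4, the second gene of each ratio, up to 3 rising and 3 falling called genes of each of the 4 lists of related genes with at least 1 CPM in a group, and the 3 protein-coding genes most correlated with Mdm2, Trp53inp1 and Gadd45a. E230016M11Rik was named after its overlap was seen. Single cell markers, and the demethylation and kinase genes given beside Tet2, Tet3 and Map3k4, were named after their values were seen. Alternatives were DESeq2 1.42.0, other scalings and filters, sequencing lane (from file names) as a term or alone, a replicate block and leaving out each library.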

Additional observations from a re-analysis of the deposited data

Results flagged for a closer look

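Of 72 groups of libraries examined, 3 held a library far from the rest of its group, where chance flags about 1 group in 20. Trp53 was at 24.8 CPM in tunicamycin replicate 1 and at 26.8 to 27.8 CPM in the other 5 treated libraries, and without it the log2 fold change was 0.37 in place of 0.35. Tet2 was at 40.6 CPM in DMSO replicate 1 and at 47.8 to 48.5 CPM in the other 3 DMSO libraries, and without it the log2 fold change was 0.42 in place of 0.49. Ccna2 was at 12.9 CPM in DMSO replicate 1 and at 8.53 to 9.21 CPM in the other 3, and without it the log2 fold change was -0.63 in place of -0.78. All 3 genes passed edgeR's test with and without these libraries.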

How the results depend on the processing

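Mdm2, Cdkn1a, Ccng1, Trp53inp1, Eda2r and the 3 Gadd45 genes kept their direction and passed in all 21 alternatives. None of the 36 genes examined in these alternatives reversed with a call. Zmat3 and Perp also kept their direction. Under upper-quartile scaling 3632 genes were called higher and 6934 lower, in place of 4983 and 5082, with 11 p53 regulators and 7 other p53 targets higher. Lane 1 alone gave 11 p53 regulators higher, 0 lower (edgeR; 0 also at an unadjusted p under 0.05) and 11 other targets lower. In lane 2 alone, 2 of the 10 genes, 0 regulators (1 at an unadjusted p under 0.05), 9 other targets and 10 partners were lower. Lane 3 alone gave 1 regulator and 9 other targets lower. Over all libraries DESeq2 called 2 regulators lower. Single lanes hold 3 or 4 libraries. With 1 library left out, 15 to 17 regulators were higher and 1 to 2 lower, 11 to 12 other targets higher and 14 to 18 lower, and 13 to 17 partners lower, while 6 and 4 of the 10 genes passed throughout.

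Replicate numbers 1 to 4 occur in both groups but did not pair the libraries: deviations of same-numbered libraries correlated at -0.22 to 0.01, and 0 of 4 DMSO libraries correlated best with their own number. With a replicate block on these 8 libraries 8814 genes were called, against 9457 without it, and Zmat3 did not pass (log2 -0.12, edgeR adjusted p = 0.0643). As differences within replicate numbers in such a block, the log2 ratios changed by -1.69 (Gadd45b to Gadd45a), -1.27 (Gadd45g to Gadd45a), 0.42 (Gadd45g to Gadd45b), 0.23 (Mdm2 to Mdm4), 0.51 (Mdm2 to Trp53) and -1.15 (Trp53inp1 to Trp53inp2). The exact sign-flip test cannot pass with 4 pairs whatever the values (adjusted p = 0.146 for each). Among the 10 genes the lowest counts were those of Gadd45a with DMSO (48 to 56) and of Perp (59 to 126).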

Other observations

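Of 13 tested relatives of the 10 genes, 5 rose and 5 fell, and the median change was -0.02 (log2). This is near the values over all tested genes, of which 31.8% rose and 32.5% fell with a median of -0.02. Pmp22, a myelin protein whose family is related to Perp, fell from 23.8 ± 1.74 CPM with DMSO to 11.5 ± 0.50 CPM with tunicamycin (log2 -1.06 ± 0.06, adjusted p = 3.49e-13 by edgeR). The zinc finger genes Zmat4 (log2 0.30) and Zmat1 (log2 0.29) rose and Zmat5 (log2 -0.32) fell, and in lane 3 alone none of these 3 passed (log2 0.12, 0.20 and -0.16). Of the exonic bases of Zmat5 27.1% overlap an antisense gene. Gak, a kinase that binds cyclin G1, rose (log2 0.29).

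Across the 10 libraries the protein-coding genes whose log2 CPM followed Mdm2 most closely were Rbm39 (r = 0.999), Akap17b (r = 0.998) and Cdk13 (r = 0.998). Trp53inp1 was followed by Zdhhc12 (r = 0.996), Smim15 (r = 0.995) and Utp14b (r = 0.991), and Gadd45a by Eif4ebp1 (r = 0.9996), Herpud1 (r = 0.999) and Preb (r = 0.999). These are the highest of 13494 genes. The libraries fall into 2 groups and 10065 genes differ between them, so such values mostly restate the treatment difference.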
